A study of Mus musculus with 9 samples.

Results

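The genes of the natriuretic peptide system were described in heart RNA: the peptide genes Nppa and Nppb, the receptor genes Npr1, Npr2 and Npr3, and Corin, which encodes a peptide-cleaving protease. They were found by their symbols in the deposited table of read counts, and all 6 were present among its 13890 named genes and passed the filter on low counts. The 9 hearts came from male NSG mice, a severely immunodeficient strain that accepts human tumour cells, aged 8 weeks at surgery and killed about 3 weeks later. Group S (animals 2, 3 and 5) had sham surgery with saline, and group T (animals 11, 12 and 15) is labelled as carrying splenic HCT116, a line of human colorectal cancer cells. Group A + T (animals 20, 21 and 22) is labelled as carrying the same cells and given ACVR2B/Fc, a soluble activin receptor fused to an antibody Fc fragment that binds activins, myostatin and related ligands. Each group thus had 3 animals, and each animal gave 1 library. HCT116 is a single line and the hosts lack lymphocytes, which limits the groups as models of cancer. Whether atria were kept with the ventricles is not given in the sources used here.

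Atrial natriuretic peptide, the product of Nppa, and B-type natriuretic peptide, the product of Nppb, are hormones that cardiomyocytes secrete when the wall of the heart is stretched. Corin cuts the precursor of the atrial peptide at the cardiomyocyte surface. Both peptides signal through the guanylyl cyclase receptor encoded by Npr1, Npr2 encodes the guanylyl cyclase receptor for the C-type peptide, and the receptor encoded by Npr3 takes up and removes all of these peptides. In the adult heart Nppa is mainly an atrial gene, and ventricular cardiomyocytes raise Nppa and Nppb under load.

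Nppa and Nppb lie next to each other on chromosome 4 of the mouse genome GRCm38, the assembly that mm10 names. By the GENCODE M21 annotation, Nppb occupies chr4:147985788-147987205 and Nppa chr4:148000722-148002079, both on the plus strand, with 13516 bases between them. The other genes lie apart, Corin at chr5:72300025-72504473, Npr1 at chr3:90450591-90465866 and Npr3 at chr15:11839896-11907287 on the minus strand, and Npr2 at chr4:43631935-43651244 on the plus strand.

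The 250 bases before the RefSeq start of each member were searched on both strands for the letters that cardiac transcription factors are known to bind. These were AGATAA or TGATAA for GATA factors, AAGTG for NKX2-5, CATTCC for TEAD factors (the MCAT element) and GGTGTGA for T-box factors. Nppa held 1 GATA, 2 NKX2-5 and 1 T-box match, Nppb held 2 GATA matches and 1 MCAT match, and the other 4 genes held none of these letters in this window. Of 32851 mouse promoters of the same length, 16.6% held the GATA letters, 40.7% those of NKX2-5, 12.6% those of MCAT and 3.33% those of T-box factors. The 30 bases with the most matches in each peptide gene, from RefSeq on GRCm38.p6 with matches in capitals, begin 250 bases before the start of Nppa (chr4:148000472-148000501) and 107 bases before that of Nppb (chr4:147985793-147985822). Gata4 and Nkx2-5, which encode factors of the GATA and NKX2-5 families, were lower in T vs. S. Neither Nppa nor Nppb passed the test described below in that comparison, and a link between the letters and these levels was not tested.
Nppa upstream: TCACACCtttgAAGTGggggcctcttgagg
Nppb upstream: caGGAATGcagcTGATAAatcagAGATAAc
In the Nppa window the first run in capitals is the T-box match, read on the minus strand, and the second is the NKX2-5 match. In the Nppb window the MCAT match on the minus strand is followed by both GATA matches. The Nppb window lies within the span that GENCODE gives this gene, because the RefSeq start used lies downstream of the GENCODE start. A match is a description of the letters and not a site of binding.

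The libraries held between 12392222 and 19732471 counts, and the ribosomal gene Rn45s took between 4.57% and 19.6% of them. A floor of 3 counts corresponded to between 0.152 and 0.281 CPM, the read count scaled to a common library size, far below every value of a member. Set beside the study's own list of changed genes, the fold changes of T vs. S lay far closer to the list's column for ACVR2B/Fc against sham (same sign for 428 of 429 genes, median difference 0.0046 on the log2 scale) than to its column for tumour hosts against sham (326 of 429, 0.692). Those of A + T vs. S had the same sign as the sum of the list's columns that lead from sham to A + T for 429 of 429 genes (median difference 0.002). The libraries labelled T may therefore be mislabelled, or the headings of that list may be. The study also had sham-operated mice given ACVR2B/Fc without tumour cells, and no library here is labelled as that group. If the libraries labelled T were such hearts, T vs. S would contrast the drug with sham. A + T vs. T would then contrast tumour hosts with tumour-free mice, both given the drug. Which of these holds was not tested. The group is called by its label, and T stands for the libraries labelled so wherever a direction is given. Animals 12 and 22 stood apart by counts of Scgb1a1 and Sftpb, genes of airway and lung, which summed to 80.5 CPM in animal 12 and 1277 CPM in animal 22, against 0.287 to 1.67 CPM in the other 7. Animal 12 also had the highest sum of 3 adipocyte genes, 68.2 CPM, against 1.05 to 15.8 CPM elsewhere. Results that change without these animals are given both ways.

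In T vs. S, Corin rose and Npr3 fell, and the changes of the other 4 members did not pass the test. No member passed it in A + T vs. T, and Nppb fell in A + T vs. S. The test was edgeR's quasi-likelihood test, fitted over 13364 genes and all 9 libraries, and a change was called at a P-value under 0.05 after Benjamini-Hochberg adjustment. The 2 members called in T vs. S stand beside 21.2% of all genes tested. The count of 0 in A + T vs. T stands beside 5.88%, and the count of 1 in A + T vs. S beside 8.31%. The median log2 fold change over all genes was 0.00 in T vs. S, 0.01 in A + T vs. T and 0.00 in A + T vs. S.

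**Figure D1:**
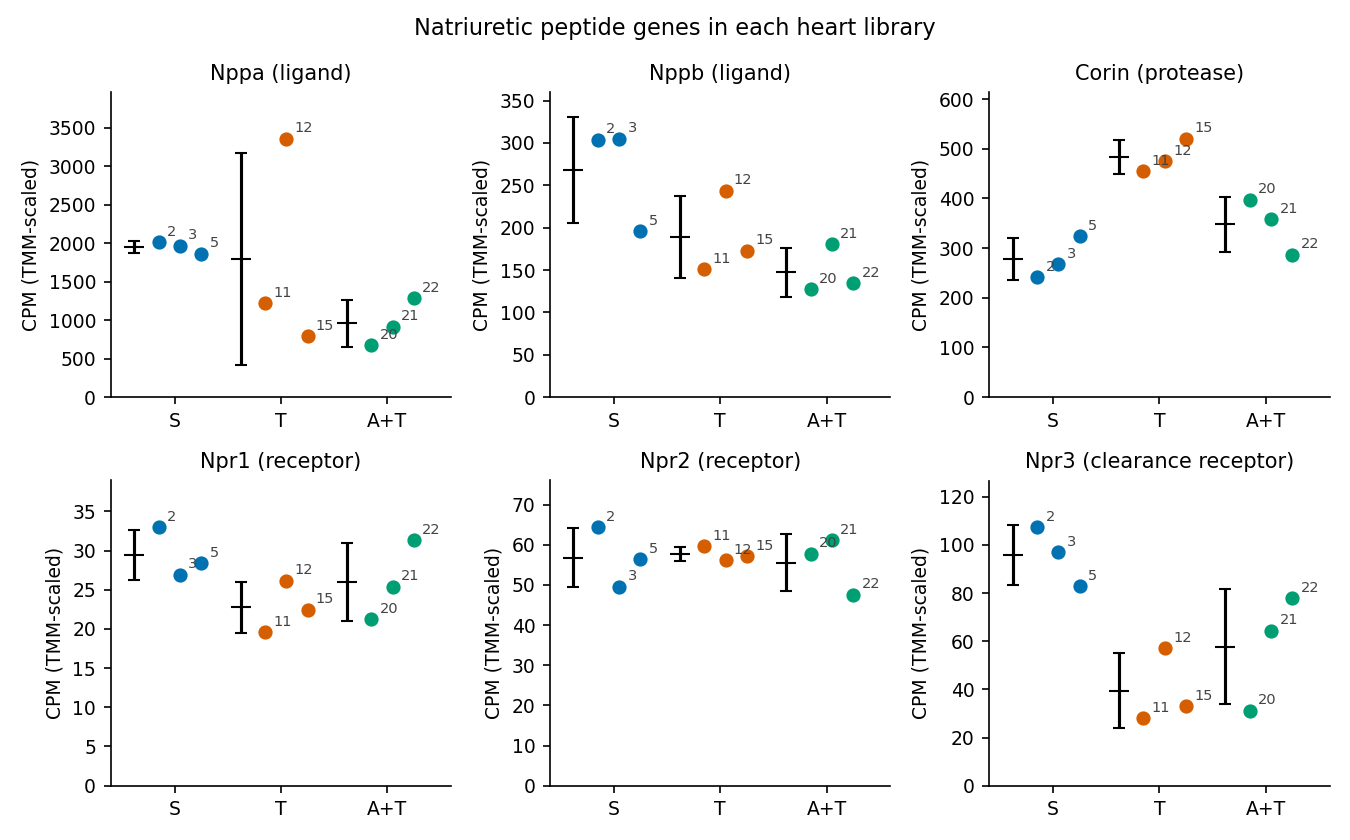
CPM (y axis, from 0, scaled by TMM) of the 6 genes in each library, with a panel for each gene, points labelled by animal and bars for the mean ± SD of 3 animals. Corin in T (455 to 521 CPM) lies above all other libraries, Npr3 in T (27.9 to 57.2 CPM) lies below S, and Nppa of animal 12 (3357 CPM) is the highest of its panel.

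Nppa had the highest level of the 6 genes in every library, in CPM and on the deposited log2 scale. It had 2012, 1968 and 1864 CPM in the S libraries of animals 2, 3 and 5, and 1216, 3357 and 795 CPM in the T libraries of animals 11, 12 and 15. The A + T libraries of animals 20, 21 and 22 had 678, 916 and 1287 CPM. The S libraries lay close together, whereas T held the highest value of all in animal 12 and its other libraries lay below S. The groups S and T overlapped, T and A + T overlapped, and all of A + T lay below S. S had a mean of 1948 ± 76.3 CPM, T of 1789 ± 1374 CPM and A + T of 960 ± 307 CPM (SD, n = 3).

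The log2 fold change of Nppa in T vs. S was -0.12 (SE 0.43, 95% interval -1.07 to 0.83), with an adjusted P-value of 0.867 by edgeR. Without animal 12 it was -0.95 with an adjusted P-value of 0.0322 by edgeR, and without animal 11 or 15 it was 0.09 or 0.24, so that each T library decided either the call or the sign. The value for A + T vs. S was -1.02 (SE 0.43, interval -1.98 to -0.06), with an adjusted P-value of 0.166 by edgeR. That contrast passed the test when animal 12, which is in neither group, was left out of the fit (-1.02, adjusted P-value of 0.0254 by edgeR) and when only S and A + T were fitted (0.0280). For A + T vs. T it was -0.90 (interval -1.85 to 0.06, adjusted P-value of 0.251 by edgeR). With animals 12 and 22 both left out, Nppa was -0.95 in T vs. S and -1.28 in A + T vs. S, with adjusted P-values of 0.00329 and 0.00252 by edgeR.

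Markers of atrial cardiomyocytes varied between the same libraries. The 9 atrial markers, Myl4, Myl7 and Kcnj3 being the most abundant, summed to 1542, 1616 and 1731 CPM in S, to 624, 1829 and 277 CPM in T and to 358, 909 and 1147 CPM in A + T, in the order of animals above. Animal 12 was the highest of the 9 libraries in both this sum and Nppa, and animals 15 and 20 were the lowest pair in both. By edgeR, 2 of the 9 were called and lower in T vs. S (Bmp10 and Kcnj5), beside 21.2% of all genes called in either direction. Over the 11 other fits 1 to 8 of the 9 were called in T vs. S, with 1637 to 3531 genes called in all. In A + T vs. S 1 was called and lower (Kcnj5), beside 8.31%, and in A + T vs. T none, beside 5.88%. In A + T vs. T 1 had an unadjusted P-value under 0.05 by edgeR, beside 22.4% of all genes, and DESeq2 and limma-voom called 0. All 9 log2 fold changes were negative in T vs. S and in A + T vs. S, with medians of -0.84 and -1.06. Bmp10 was between 66.1 and 158 CPM in S, at 1.86, 1.13 and 1.78 CPM in T and at 0.247, 0.359 and 51.5 CPM in A + T. It was thus also low in animal 12, where the summed markers were highest, and did not follow the sum within T. In these bulk libraries, fewer cells of a type and less RNA per cell cannot be told apart.

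With the log2 of the summed atrial markers as a covariate, a fit added after the data had been seen, Nppa was 0.47 in T vs. S (adjusted P-value of 0.0800 by edgeR) and -0.25 in A + T vs. S (0.387). Under the same fit A + T vs. T gave -0.72, with an adjusted P-value of 0.0176 by edgeR. The direction of Nppa in T vs. S thus turned with the covariate. The covariate itself differed between groups, with sums of 358 to 1147 CPM in A + T and 1542 to 1731 CPM in S. In T only animal 12, at 1829 CPM, was not below S. Fits with this covariate therefore cannot fully separate the group from the atrial marker level. The sum of the 4 ventricular markers spanned 8725 to 11858 CPM in T and 10101 to 11161 CPM in S, and these ranges overlap. Myl2 and Myl3 carried this sum, and Irx4, a ventricular transcription factor of low level, fell by 0.48 in T vs. S and by 0.54 in A + T vs. S (adjusted P-values of 0.0222 and 0.0291 by edgeR).

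**Figure D2:**
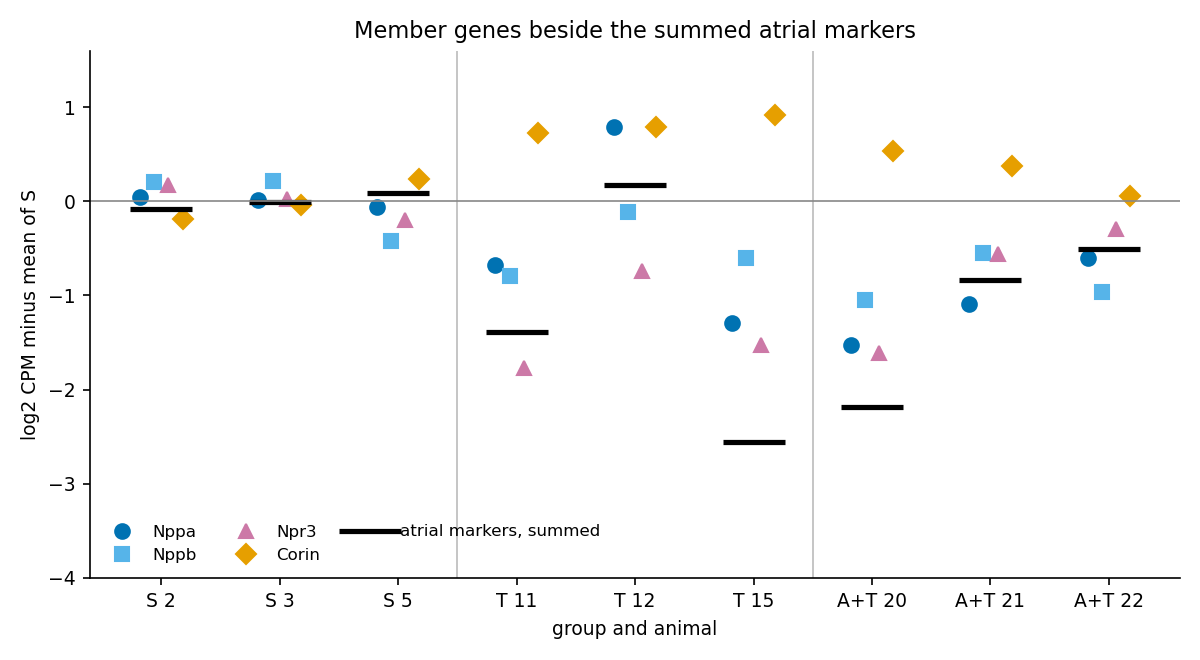
Log2 CPM of Nppa, Nppb, Npr3 and Corin minus the mean of S (y axis, a log scale) in each library (x axis), with bars for the summed CPM of the 9 atrial markers on the same scale. The bars of animals 15 and 20 (277 and 358 CPM) and their Nppa points are the lowest of the 9 libraries, and Corin lies above 0 in all 3 T libraries.

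Nppb, the gene beside Nppa, had 304, 305 and 196 CPM in S, 152, 244 and 173 CPM in T and 127, 180 and 135 CPM in A + T. Animal 5 lay below the other S libraries, and all of A + T lay below S, while T overlapped both groups. Nppb fell 1.82-fold in A + T vs. S, by 0.87 on the log2 scale (SE 0.22, interval -1.35 to -0.39, adjusted P-value of 0.0371 by edgeR). The call was lost without animal 2 (0.131), 3 (0.124), 20 (0.0874) or 22 (0.0746), these being adjusted P-values by edgeR, and with the deposited log2 values in limma (0.0797). Its log2 fold change in T vs. S was -0.50 (interval -0.98 to -0.03, adjusted P-value of 0.123 by edgeR), and without animal 12 it was -0.73 with an adjusted P-value of 0.0431 by edgeR. For A + T vs. T it was -0.36 (interval -0.84 to 0.12, adjusted P-value of 0.351 by edgeR). With the atrial covariate, Nppb in A + T vs. S was -0.67 with an adjusted P-value of 0.0948 by edgeR.

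The read counts of Nppa and Nppb within a library give a ratio that needs no scaling between libraries. There were 6.62, 6.45 and 9.50 counts of Nppa for each count of Nppb in S, 8.03, 13.8 and 4.60 in T and 5.34, 5.07 and 9.57 in A + T. T held both the highest ratio, in animal 12, and the lowest, in animal 15, and all 3 groups overlapped. On the log2 scale S was at 2.89 ± 0.31, T at 3.00 ± 0.79 and A + T at 2.67 ± 0.51 (SD, n = 3). The 2-sided exact permutation test gave a P-value of 0.8 for T vs. S (difference 0.11), 0.7 for A + T vs. T (-0.32) and 0.6 for A + T vs. S (-0.22). Over the 6 ratio comparisons made, each of these had an adjusted exact P-value of 0.8, and with 3 animals against 3 the smallest P-value possible is 0.1. Without animal 12 the difference was -0.28 in T vs. S and 0.07 in A + T vs. T, the opposite sign in each.

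Corin, the gene of the protease that cuts the atrial peptide's precursor, was highest in T. It had 241, 267 and 324 CPM in S, 455, 475 and 521 CPM in T and 398, 358 and 287 CPM in A + T. All of T lay above S and above A + T, and A + T overlapped S through animal 22. Corin rose 1.74-fold in T vs. S, by 0.80 on the log2 scale (SE 0.14, interval 0.50 to 1.11, adjusted P-value of 0.00302 by edgeR). It remained called with each of the 9 animals left out in turn (0.72 to 0.93, highest adjusted P-value 0.0177 by edgeR) and in all 11 other fits.

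Corin differed between A + T and T by -0.48 on the log2 scale (SE 0.14, interval -0.78 to -0.17) with an adjusted P-value of 0.0703 by edgeR, and DESeq2 gave -0.48 with an adjusted P-value of 0.0120. Corin was the 1 member of 6 with an unadjusted P-value under 0.05 in this comparison by edgeR (0.00571), beside 22.4% of all genes. The difference from S was 0.33 in A + T (interval 0.02 to 0.63, adjusted P-value of 0.165 by edgeR), and 0.45 without animal 22 (adjusted P-value of 0.0475 by edgeR). Of 4 genes of the ventricular stress programme, Myh7, the slow myosin heavy chain, and Ankrd1 rose in T vs. S, by 3.16 and 1.07 on the log2 scale, and fell in A + T vs. T (adjusted P-values by edgeR of 7.49e-07 and 0.00099 in the first and 1.2e-05 and 0.0237 in the second). The other members of the list, Acta1 and Xirp2, were at -0.64 and -0.34 in T vs. S (0.167 and 0.211). All T libraries lay below S for both. The 2 of 4 called in T vs. S stand beside 21.2% of all genes, and the 2 of 4 in A + T vs. T beside 5.88%. Over the 11 other fits 2 to 4 of the 4 were called in T vs. S. Myh7 was between 1254 and 1535 CPM in S, between 11600 and 12798 CPM in T and between 2251 and 2583 CPM in A + T. The part of this programme in the level of Corin was not tested.

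**Figure D3:**
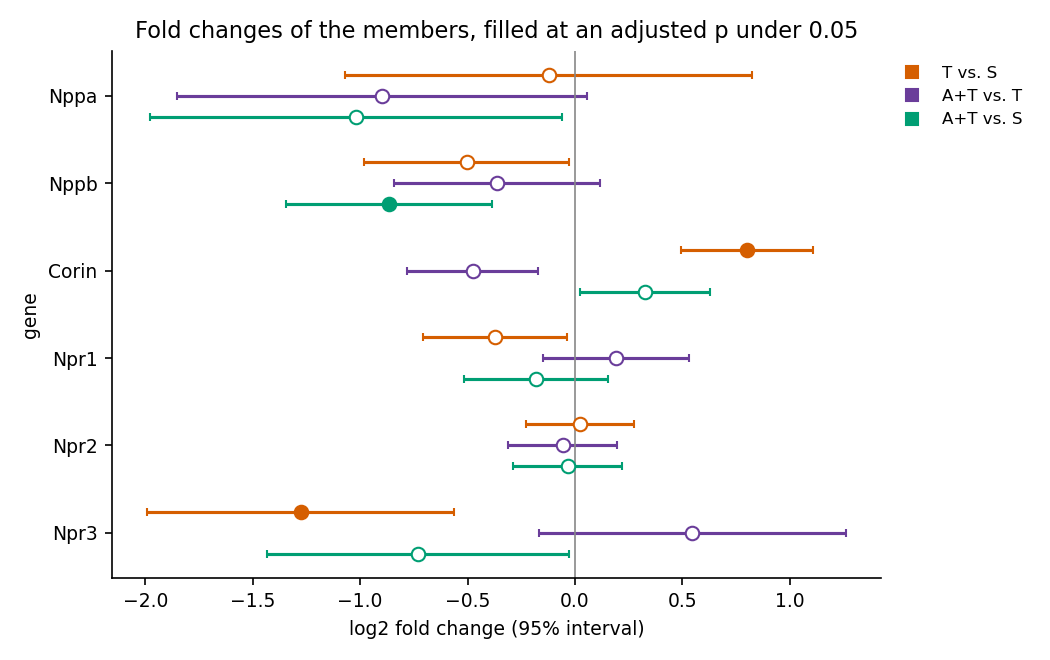
Log2 fold changes (x axis) of the 6 genes (y axis) in the 3 comparisons with 95% intervals from edgeR, filled where the adjusted P-value is under 0.05. Corin (0.80) and Npr3 (-1.28) are filled in T vs. S, Nppb (-0.87) in A + T vs. S, and no gene in A + T vs. T.

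Npr3 had the largest fall of the 3 receptor genes. It had 107, 97.0 and 82.8 CPM in S, 27.9, 57.2 and 33.1 CPM in T and 31.2, 64.4 and 77.8 CPM in A + T. All of T and all of A + T lay below S, and T and A + T overlapped. Npr3 fell 2.42-fold in T vs. S, by 1.28 on the log2 scale (SE 0.32, interval -1.99 to -0.56, adjusted P-value of 0.0187 by edgeR). The call was lost without animal 2 (0.0648), 3 (0.0527), 11 (0.0761) or 15 (0.0603), these being adjusted P-values by edgeR, with values of -1.65 to -1.08 over all 9 fits that each left out an animal.

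Npr3 differed between A + T and S by -0.73 on the log2 scale (interval -1.43 to -0.03, adjusted P-value of 0.175 by edgeR), and -1.0 with an adjusted P-value of 0.0283 by edgeR when animals 12 and 22 were both left out. The A + T vs. T value was 0.55 (interval -0.17 to 1.26, adjusted P-value of 0.347 by edgeR). The endocardium, the inner lining of the heart, is a known site of Npr3. The 6 endocardial markers summed to 256 to 300 CPM in S, 153 to 200 CPM in T and 204 to 293 CPM in A + T, so that T lay below S. Vwf carried most of this sum, with 21055 counts over all libraries against 3802 for Nfatc1 and 3742 for Plvap. The sum of vascular endothelial markers, given below, was also lower in T than in S. Of the 5 endocardial markers that could be tested, 2 fell in T vs. S, beside 21.2% of all genes called in either direction. Vwf fell by 0.64 and Cdh11 by 0.97 on the log2 scale (adjusted P-values of 0.00928 and 0.0427 by edgeR), whereas Nfatc1 was at -0.02 (0.930). With the atrial covariate Npr3 was at -0.79 in T vs. S, with an adjusted P-value of 0.04997 by edgeR that lies just under the threshold. The part of endocardial cells in the level of Npr3 was not tested.

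Npr1, the receptor of both cardiac peptides, had 33.0, 26.9 and 28.4 CPM in S, 19.6, 26.1 and 22.4 CPM in T and 21.3, 25.4 and 31.3 CPM in A + T. All of T lay below S by a narrow margin between animals 12 and 3, and A + T overlapped both groups. The log2 fold change in T vs. S was -0.37 (interval -0.71 to -0.03), with an adjusted P-value of 0.108 by edgeR. It passed the test without animal 22, which is in neither group (-0.36, adjusted P-value of 0.0484 by edgeR), and without animals 12 and 22 (-0.48, 0.0167). The A + T vs. T value was 0.19 (interval -0.15 to 0.53, adjusted P-value of 0.503 by edgeR), and in A + T vs. S -0.18 (interval -0.51 to 0.15, 0.480).

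Npr2, the receptor of the C-type peptide, varied least of the 6 genes. It had 64.4, 49.6 and 56.4 CPM in S, 59.7, 56.2 and 57.1 CPM in T and 57.8, 61.1 and 47.5 CPM in A + T. The groups overlapped throughout, with log2 fold changes of 0.02 in T vs. S (interval -0.23 to 0.28), -0.06 in A + T vs. T (-0.31 to 0.20) and -0.03 in A + T vs. S (-0.29 to 0.22). The adjusted P-values by edgeR were 0.906, 0.812 and 0.885. The sign in T vs. S turned with upper-quartile scaling or library size only. The gene of its ligand, Nppc, was not among the named genes of the deposited counts.

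By range alone, 3 of the 6 members did not overlap between groups in T vs. S (Corin, Npr1 and Npr3), beside 42.6% of all genes. There were 3 in A + T vs. S (Nppa, Nppb and Npr3), beside 32.4%, and 1 in A + T vs. T (Corin), beside 25.4%. The SD of log2 CPM over the 9 libraries was 0.75 for Nppa, 0.74 for Npr3, 0.47 for Nppb, 0.39 for Corin, 0.25 for Npr1 and 0.14 for Npr2.

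The ratio of the clearance receptor to the signalling receptor was compared in the same way as that of the peptide genes. There were 3.26, 3.60 and 2.91 counts of Npr3 for each count of Npr1 in S, 1.42, 2.19 and 1.48 in T and 1.47, 2.54 and 2.49 in A + T. All of T and all of A + T lay below S, and T and A + T overlapped. As a log2 value it was 1.70 ± 0.15 for S, 0.73 ± 0.34 for T and 1.07 ± 0.45 for A + T (SD, n = 3). The difference was -0.97 in T vs. S and -0.63 in A + T vs. S, each with a 2-sided exact permutation P-value of 0.1, the smallest possible, and an adjusted value of 0.3. Between A + T and T it was 0.34, with an exact P-value of 0.3 (adjusted 0.6).

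**Figure D4:**
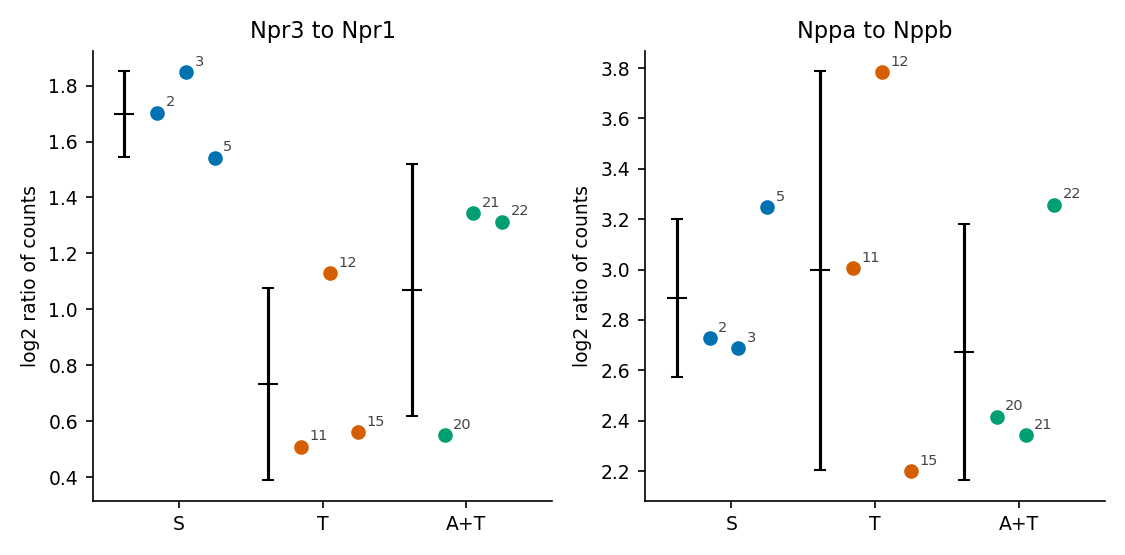
Log2 ratio of counts (y axis) of Npr3 to Npr1 and of Nppa to Nppb in each library, grouped as S, T and A + T, with bars for the mean ± SD of 3 animals and points labelled by animal. Npr3 to Npr1 is highest in the 3 S libraries (mean 1.70), while Nppa to Nppb in T spans the values of both other groups.

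Levels of different genes were compared on the deposited log2 scale, which differs from log2 CPM by a near-constant amount for each gene, as scaling by gene length would give. On that scale the mean levels in S were 11.19 for Nppa, 8.39 for Nppb, 5.77 for Corin, 3.94 for Npr2, 3.69 for Npr3 and 2.85 for Npr1. In S the ranges of Npr2 (3.76 to 4.13) and Npr3 (3.49 to 3.87) overlapped, and every other neighbouring pair in that order was separated. In T, Npr3 had the lowest mean level, 2.35 (range 1.93 to 2.96), and overlapped Npr1 (2.28 to 2.68). In A + T the level of Npr3 was 2.87 (2.09 to 3.40) and again overlapped Npr1 (2.39 to 2.94). Npr3 was above Npr1 in 3 of 3 S libraries, 1 of 3 T libraries and 2 of 3 A + T libraries.

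The genes whose profile over the 9 libraries was most like that of a member were found for Nppa and Npr3, the members with an SD of at least 0.5. Likeness was the root mean square difference of log2 CPM after centring, over 8570 genes with a mean of at least 10 CPM. The genes most like Nppa were Podn (0.30), Stard10 (0.33) and Gng2 (0.37), against a median of 0.72 over all genes compared. The genes most like Npr3 were Gja5 (0.21), Smoc1 (0.28) and Tmtc2 (0.28), against a median of 0.72. Gja5, which encodes connexin 40, a gap junction protein of atria, conduction system and arteries, had 33.1, 32.4 and 30.1 CPM in S, 9.10, 24.4 and 9.91 CPM in T and 7.66, 22.5 and 23.6 CPM in A + T. Animals 11, 15 and 20 were lowest for both Gja5 and Npr3.

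Of 46 further genes of natriuretic peptide and cyclic GMP signalling, 41 were in the table and 40 passed the filter. In T vs. S 13 were called by edgeR, 3 higher and 10 lower, with a median log2 fold change of -0.18. Of those tested in A + T vs. T, 2 were higher and 2 lower (median -0.01), and in A + T vs. S 0 were higher and 4 lower (median -0.14). These counts stand beside the shares of all genes given above. Over the 3 comparisons 14 genes were called, and the 10 with the largest changes are named here. Nppc, Ostn, Scg3, Chga and Mep1a were not among the named genes of the deposited counts and could not be analysed.

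Among genes that process peptide precursors, Pcsk6, a proprotein convertase known to activate corin, fell by 1.31 in T vs. S and by 0.72 in A + T vs. S on the log2 scale (adjusted P-values of 0.00165 and 0.0476 by edgeR). It had 136, 117 and 104 CPM in S, 48.7, 37.6 and 58.7 CPM in T and 88.9, 73.5 and 53.6 CPM in A + T, so that all of T lay below S. Furin, another convertase, fell by 0.47 in A + T vs. T (0.0275) and was at 0.31 in T vs. S (0.0519). Among peptidases, Mme (neprilysin), which degrades natriuretic peptides, fell by 1.03 in T vs. S (0.000189) and rose by 0.68 in A + T vs. T (0.00722). Mme had 25.9, 25.8 and 24.0 CPM in S, 11.8, 13.4 and 11.9 CPM in T and 19.5, 18.01 and 21.8 CPM in A + T, and the 3 groups did not overlap. Ece1, endothelin converting enzyme, fell by 0.44 in T vs. S (0.0340).

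The nitric oxide receptor is another source of cyclic GMP. Gucy1b3, the gene of its beta subunit, fell by 1.0 in T vs. S (adjusted P-value of 0.00110 by edgeR) and rose by 0.63 in A + T vs. T (0.0314). Nos3, endothelial nitric oxide synthase, fell by 0.47 in T vs. S (0.0162) and by 0.54 in A + T vs. S (0.0200). Downstream, Prkg1, the cyclic GMP-dependent kinase, rose by 0.64 in T vs. S (0.0114) and fell by 0.58 in A + T vs. T (0.0457). Vasp, a substrate of that kinase, fell by 0.65 in T vs. S (0.00405). Of 9 phosphodiesterase and efflux genes 2 were called in T vs. S, 1 in each direction, beside 21.2% of all genes. Of the 3 inhibitory G protein genes none was called in any of the 3 comparisons by edgeR, DESeq2 or limma-voom. By edgeR this stands beside 21.2% of all genes called in T vs. S, 5.88% in A + T vs. T and 8.31% in A + T vs. S. At an unadjusted P-value under 0.05 by edgeR, 1 of these 3 passed, in T vs. S. The share of all genes at that unadjusted cut in T vs. S was not counted.

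Markers of other cell types moved in the same comparison as these genes. In T vs. S, 6 of 6 fibroblast markers, 5 of 6 mural cell markers and 3 of 5 vascular endothelial markers were called and lower. These counts stand beside 21.2% of all genes called in either direction. The fibroblast markers summed to 1350 to 1553 CPM in S, 813 to 939 CPM in T and 1034 to 1509 CPM in A + T. In A + T vs. T 4 of the 6 were called and higher, beside 5.88% of all genes called in either direction. The mural cell markers summed to 391 to 476 CPM in S, 193 to 265 CPM in T and 250 to 344 CPM in A + T, and the endothelial markers to 947 to 1156, 678 to 841 and 874 to 1120 CPM. Their part in the changes of Mme, Gucy1b3, Nos3 and Vasp was not tested.

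**Figure D5:**
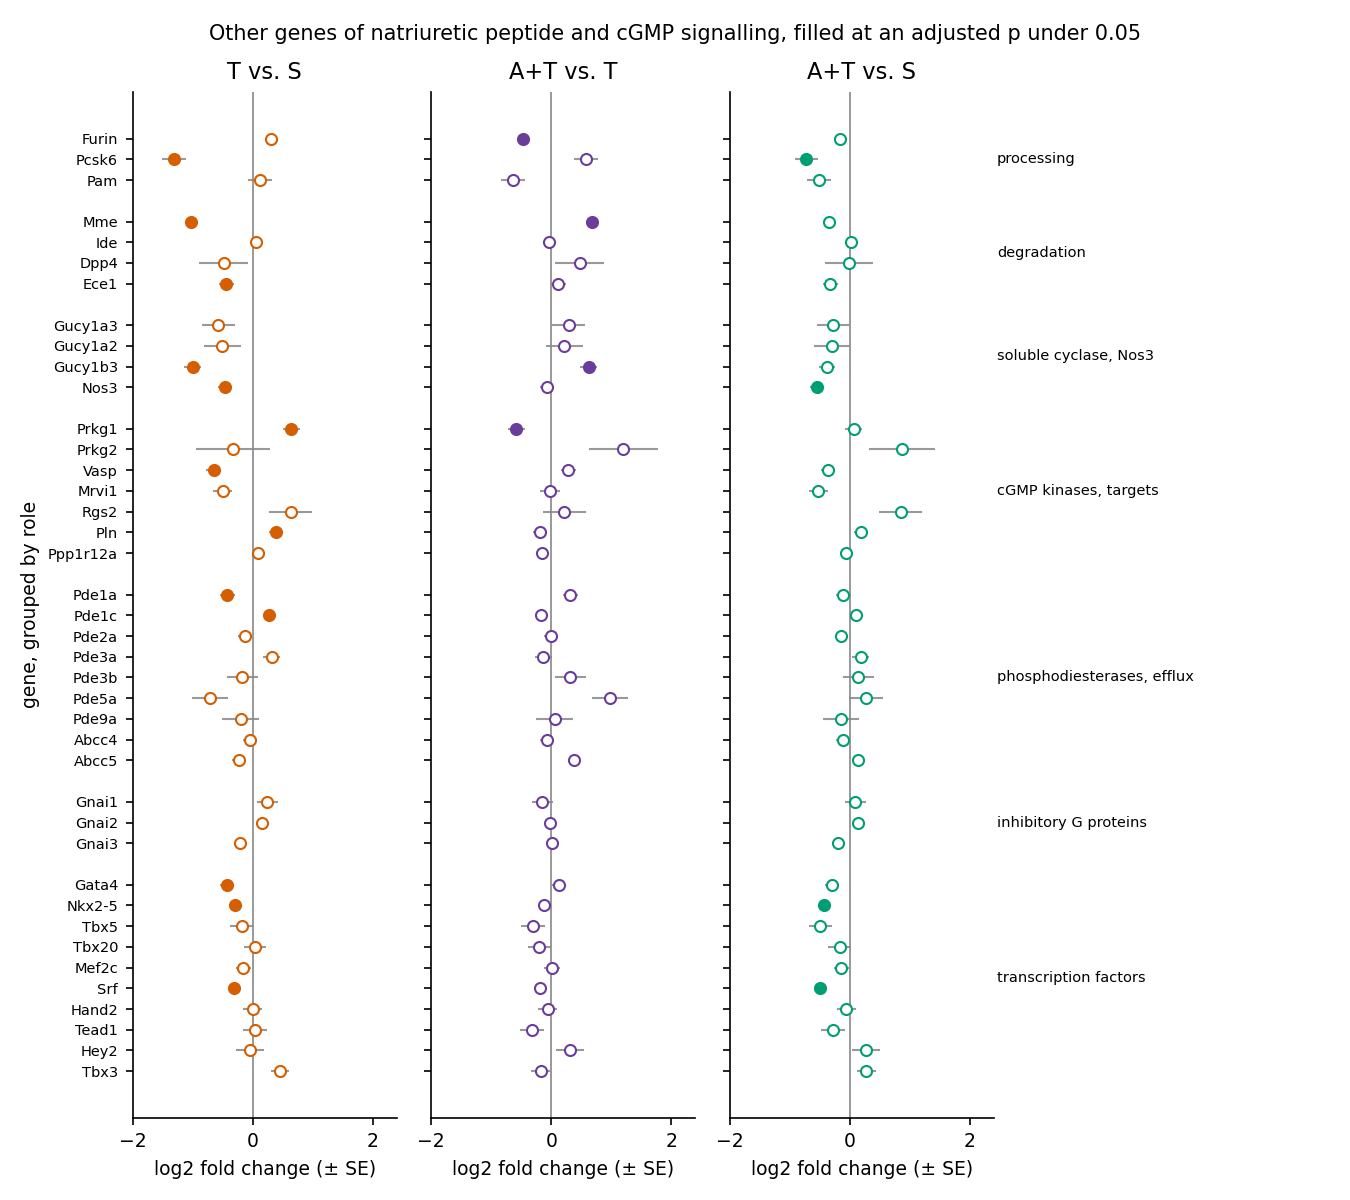
Log2 fold changes (x axis, ± SE) of the 40 further pathway genes that passed the filter (y axis, grouped by role) in the 3 comparisons, filled at an adjusted P-value under 0.05 by edgeR. In T vs. S 10 genes are filled and lower, led by Pcsk6 (-1.31) and Mme (-1.03), and 3 are filled and higher.

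Of 10 transcription factor genes known to act on Nppa or Nppb, 3 fell in T vs. S, beside 21.2% of all genes called in either direction. The 2 that fell in A + T vs. S stand beside 8.31%. In T vs. S, Gata4 fell by 0.43 (adjusted P-value of 0.0281 by edgeR), Srf by 0.31 (0.0361) and Nkx2-5 by 0.30 (0.0149). Nkx2-5 had 77.4, 74.2 and 70.9 CPM in S, 60.3, 59.0 and 61.5 CPM in T and 51.7, 56.3 and 57.8 CPM in A + T, and the 3 groups did not overlap. Srf fell by 0.50 (0.0113) and Nkx2-5 by 0.43 (0.00884) in A + T vs. S. None of the 10 was called in A + T vs. T by edgeR, DESeq2 or limma-voom, beside 5.88% of all genes by edgeR. At an unadjusted P-value under 0.05 by edgeR 0 of the 10 passed there, beside 22.4% of all genes. For the 3 factor genes that fell in T vs. S, the Nppa window printed above holds only the letters of NKX2-5. Outside that window Nppa has its GATA match, 122 bases before the start, and its other NKX2-5 match, 65 bases before it. The Nppb window holds only the letters of GATA factors, and SRF letters were not searched for. The other matches printed are those of T-box and TEAD factors. The genes of those families on the list, Tbx3, Tbx5, Tbx20 and Tead1, were not called in T vs. S by edgeR. No measurement of binding was made.

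Of 5 genes that lie near Nppa and Nppb on chromosome 4, Plod1, a lysyl hydroxylase of collagen, fell by 0.51 in T vs. S and by 0.66 in A + T vs. S (adjusted P-values of 0.0102 and 0.00938 by edgeR). It had 104 to 113 CPM in S, 71.0 to 81.6 CPM in T and 55.4 to 74.6 CPM in A + T. Clcn6, 2510039O18Rik, Mfn2 and Agtrap were not called by edgeR in any of the 3 comparisons. Over these 5 genes the log2 fold changes spanned -0.66 to 0.31. The 1 called of 5 stands beside 21.2% of all genes called in T vs. S and 8.31% in A + T vs. S.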

How the data were processed

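The authors made mRNA libraries from heart RNA and sequenced them as paired ends. Per the labels, RNA isolation and sequencing of all hearts were done together, and no batch is given. Reads were aligned to mm10 with STAR and counted on RefSeq genes by strand with featureCounts, and the authors deposited counts per gene without normalization. They also deposited log2 values, which differed from log2 CPM by a constant for each gene (median SD over libraries 0.00268 for 12254 genes). The submitters' processing notes name FastQC, STAR and edgeR, with no version. Of the rows, 3443 had no gene symbol and were left out.

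Genes with over 4 of 9 libraries under 0.5 CPM were removed (526), and 13364 were tested with edgeR 4.0.16 in R 4.3.3 (quasi-likelihood, TMM, all 9 libraries). CPM are TMM-scaled. The standard error is the log2 fold change over the square root of F, and 95% intervals use the t distribution. Within-library ratios were compared by a 2-sided exact permutation test. P-values by edgeR rest on the spread between animals within groups, estimated over all 9 libraries together and drawn towards that of other genes. Floors cover counting error only, because reads carried no molecular identifiers. Replicate libraries differed beyond sampling noise. The edgeR steps were tested on simulated counts for T vs. S over 13364 genes, where 77 of 100 genes changed by 1 on the log2 scale, 94 of 100 changed by 2 and 9 unchanged genes were called. DESeq2 1.42.0 and limma 3.58.1 were alternatives. Figures were drawn with matplotlib 3.10.9.

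The 6 members, the pathway, locus and marker lists and the tests were chosen with earlier results of these data known. All members are described. Of the other pathway genes called in any comparison, the 10 with the largest change are named, and of a marker list the most abundant. The genes Nkx2-5, Bmp10, Kcnj5, Cdh11, Irx4, Myh7, Ankrd1, Acta1, Xirp2 and Plod1, and the genes not called beside Plod1, were singled out after their values were seen. Gucy1b3 was matched by its older symbol. Some items of the Nppa and Nppb locus are not reported here.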

Additional observations from a re-analysis of the deposited data

How the results depend on the processing

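Corin in T vs. S kept its direction and call in every fit run, and Npr3 in T vs. S kept its direction in every fit and lost its call only without animal 2, 3, 11 or 15. No paired analysis was possible because the animals carry different numbers in each group and the labels pair none of them.

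With each animal left out in turn, log2 fold changes by edgeR in T vs. S ranged from -0.95 to 0.24 for Nppa, -0.73 to -0.37 for Nppb, -0.49 to -0.27 for Npr1, -0.067 to 0.13 for Npr2 and -1.65 to -1.08 for Npr3. Npr2 in A + T vs. T ranged from -0.13 to 0.041.
In A + T vs. S the ranges were -1.28 to -0.82 for Nppa, -1.05 to -0.76 for Nppb, 0.22 to 0.45 for Corin and -0.12 to 0.073 for Npr2. The log2 ratio of Nppa to Nppb ranged from -0.28 to 0.51 in T vs. S and from -0.72 to 0.069 in A + T vs. T. The members called numbered 1 to 4 in T vs. S and 0 to 2 in A + T vs. S, and the pathway genes called 6 to 18 in T vs. S, 1 to 5 in A + T vs. T and 1 to 6 in A + T vs. S. The marker genes called, 23, 8 and 6 in the same order, numbered 17 to 28, 1 to 10 and 1 to 12.

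DESeq2 gave -0.48 for Corin in A + T vs. T, 1 member and 8 pathway genes called there, and 7 pathway genes in A + T vs. S. Upper-quartile scaling gave -0.0011 and library size only -0.0031 for Npr2 in T vs. S, and with library size only 6 pathway genes were called in T vs. S and 2 in A + T vs. T. With only the groups compared, Nppa in A + T vs. S was -1.02, with 2 members called, and 1 pathway gene and 3 marker genes were called in A + T vs. T. The deposited log2 values with limma gave -0.85 for Nppb in A + T vs. S, with 0 members called, and 1 pathway gene and 5 marker genes in A + T vs. T. They kept all 3 nearest profiles of Nppa and 2 of the 3 of Npr3. Of all 13364 genes in A + T vs. S, DESeq2 called 1536 and the fit with only the groups compared 894.

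Without animals 12 and 22, an alternative chosen after seeing the data, T vs. S gave -0.95 for Nppa, -0.72 for Nppb and -0.48 for Npr1, with 5 members, 22 pathway genes and 39 marker genes called. A + T vs. S then gave -1.28 for Nppa, 0.45 for Corin, 0.072 for Npr2 and -1.0 for Npr3, with 4 members, 11 pathway genes and 17 marker genes called, and Npr2 was 0.022 in A + T vs. T. With the atrial covariate, also chosen after seeing the data, Nppa was 0.47 and Npr2 -0.026 in T vs. S, Nppa was -0.72 in A + T vs. T with 1 member called, and Nppb was -0.67 in A + T vs. S with 0 called. Of all 13364 genes, the fit without animals 12 and 22 called 3531 in T vs. S and 1259 in A + T vs. S. The fit with the covariate called 990 in A + T vs. T and 1104 in A + T vs. S. The cause of these changes between fits was not tested.

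Over all genes, edgeR called 2837 in T vs. S (1637 with library size only, 1765 to 3786 with each animal left out), 786 in A + T vs. T (1198 by DESeq2, 438 with library size only, 217 with only the groups compared, 513 with the deposited log2 values, 130 to 1006 with each animal left out) and 1110 in A + T vs. S (555 with library size only, 672 with the deposited log2 values, 269 to 1086 with each animal left out). The other settings stayed within 1.5 times. With 3 animals a group, the spread between animals and not the depth limits the members, which had 240 to 56498 counts in a library.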
